A study of Mus musculus with 60 samples.

Results

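The comparison described here is that of mouse primary cortical cultures given paxillin siRNA with cultures given scrambled (SC) siRNA, both without BDNF and both collected on day 5 in vitro (DIV5). Its members were taken by their labels and comprised 10 of the 60 libraries of the series, 6 with paxillin siRNA (cultures 1, 2, 3, 4, 10, and 11) and 4 with SC siRNA (cultures 1, 2, 3, and 4). By their labels, all 10 cultures were of wild-type genotype, were prepared from E18 cortex, were grown in neurobasal medium with Gem21 supplement, and received their siRNA at 2 DIV, so that RNA was taken 3 days later. The paper instead names E15 for its mouse cultures in a figure legend and E18 for rat cultures in its methods. The paxillin siRNA was a pool of a pair of siRNAs against the same gene, and the SC siRNA a single scrambled control, so the effects of the separate siRNAs cannot be told apart. Messenger RNA was sequenced on an Illumina instrument, and the level of each gene was given as TPM (a length-corrected share of the transcripts of each library). Every library summed to the same total, so the depth behind a value is unknown, and with whole-gene values exon inclusion was not measured.

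Paxillin is an adaptor protein of focal adhesions, the sites at which integrins link the extracellular matrix to the actin cytoskeleton. It binds focal adhesion kinase, vinculin, and the Crk adaptors, and a share of it shuttles into the nucleus, where its partners include RNA-binding proteins. Cortical cultures of this age consist of young neurons that extend neurites and of progenitors that give rise to astrocytes and oligodendrocytes.

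One library stood apart before any gene was considered. SC siRNA culture 3 had a summed level of 3396 TPM over 14 astrocyte markers, whereas SC siRNA cultures 1, 2, and 4 had 8625, 14077, and 16385 TPM, and the 6 paxillin siRNA libraries lay between 3023 and 5762 TPM. The state of each library was also placed on a line from the mean SC siRNA profile at DIV3 (0) to that at DIV10 (1), by least squares over the 14250 genes tested. The paxillin siRNA libraries lay between 0.21 and 0.43 on this line, with a median of 0.33, while SC siRNA cultures 1, 2, 3, and 4 lay at 0.50, 0.63, 0.18, and 0.60. Thus 3 of the 4 SC siRNA libraries were above every paxillin siRNA library and culture 3 was below all 6 of them. In the paired comparison, culture 3 was at 0.21 with paxillin siRNA and 0.18 with SC siRNA. For the main genes and lists, values are therefore given for each culture or counts without both libraries of culture 3, the latter a choice made after seeing the data.

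**Figure D1:**
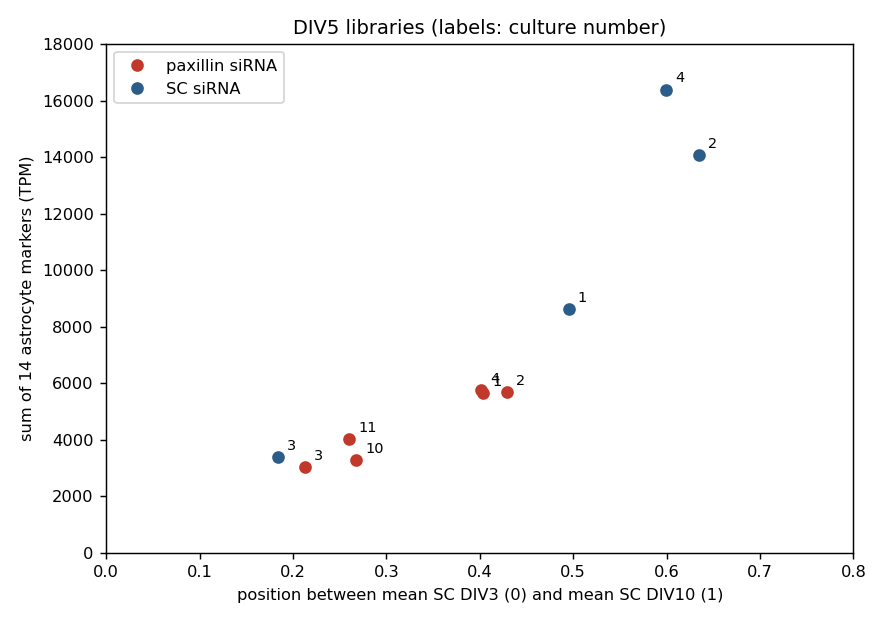
Each point is a DIV5 library, numbered by culture; the x axis gives its position between the mean SC siRNA profiles of DIV3 (0) and DIV10 (1) and the y axis the summed TPM of 14 astrocyte markers. The libraries of SC siRNA cultures 1, 2, and 4 lie to the upper right of all 6 paxillin siRNA libraries, and SC siRNA culture 3, at 0.18 and 3396 TPM, lies at the lower left.

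Pxn, the gene targeted (GRCm38.p6, chr5:115491970-115555987), was at 13.1, 19.9, 12.4, and 16.4 TPM in SC siRNA cultures 1, 2, 3, and 4, and between 8.43 and 9.83 TPM, with a median of 9.11, in the 6 paxillin siRNA libraries. The groups did not overlap, as was so for 4.7% of all genes in this direction and 0.877% in the other, and SC siRNA culture 3 was here on the side of the other SC siRNA libraries. The log2 difference, on the scale of log2(TPM + 1) used throughout, was -0.67 (2-sided exact permutation test over 6 against 4 libraries, p = 0.00476, the smallest p this design allows). Within culture pairs the difference was -0.47, -0.97, -0.31, and -0.79 in cultures 1, 2, 3, and 4, and the exact permutation test of the 4 pairs gave p = 0.125, the smallest that 4 pairs allow.

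Over all genes, 880 of 14250 (6.18%) passed the threshold (limma, Benjamini-Hochberg adjusted p under 0.05), of which 766 were lower with paxillin siRNA (5.38% of the genes tested) and 114 higher (0.8%). The share of higher genes among the calls was 13% as deposited and 37.5% after rescaling with median ratio size factors, where 437 genes passed. Blocking on the culture number gave 2314 lower (16.2%) and 921 higher genes (6.46%), including all 880. The same block over only the 8 libraries of cultures 1 to 4 called 439 genes, 149 of them among the 880. A fit of the 10 libraries of the comparison alone called 3 genes, 2 higher and 1 lower, and one of the DIV5 libraries alone called 564, of which 437 were among the 880. Without both libraries of culture 3, 1579 genes were lower and 332 higher, 858 of them among the 880. Leaving out SC siRNA culture 2 left 66 calls, SC siRNA culture 4 284, and SC siRNA culture 1 427, whereas 2126 genes passed without SC siRNA culture 3. Without paxillin siRNA culture 1, 2, or 10 it was 433, 468, or 552. The column names carry library numbers whose meaning is not stated, and 4 series of them were inferred here. In cultures 3 and 4 alone, which share one inferred series, no gene passed (limma, 565 genes at an unadjusted p under 0.05). All SC siRNA libraries belong to that series, whereas the paxillin siRNA libraries of cultures 1, 2, 10, and 11 belong to 3 others, so in these the series and the siRNA cannot be told apart. With the series as a term in the fit of all libraries, 1891 genes were lower and 1221 higher, 763 of them among the 880.

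The called genes moved in the same direction in most culture pairs, but by unequal amounts. Of the 766 lower genes, 617 were lower in all 4 pairs, and their median log2 difference was -0.61, -0.74, -0.17, and -0.69 in cultures 1, 2, 3, and 4. Of the 114 higher genes, 89 were higher in all 4 pairs, with medians of 0.73, 0.87, 0.23, and 0.82. The pair of culture 3 thus had the smallest median change in either direction. These per-culture medians are descriptions, since the same libraries chose the genes.

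The lower genes had long transcripts. The longest annotated transcript of the lower protein-coding genes had a median length of 4241 bases, against 1944 bases for the higher genes and 3220 bases for all protein-coding genes tested, and their median GC content was 52.2%, 50.7%, and 50.6%. Among the 1259 shortest genes, 29 were higher and 7 lower, and among the 1258 longest, 2 were higher and 110 lower. The median difference of these longest genes against these shortest genes varied between single libraries, from -0.24 to 0.07 on the log2 scale over the paxillin siRNA libraries and from 0.04 to 0.27 over the SC siRNA libraries, each library being centred on the mean of all 10. The part of RNA quality or of the library in this pattern was not tested.

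**Figure D2:**
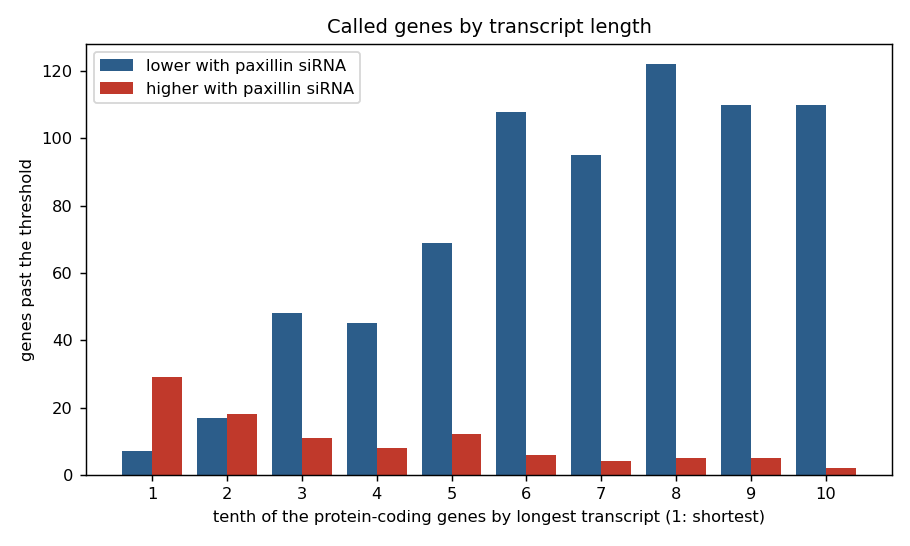
Bars give the number of genes past the threshold (y axis) in 10 equal bins of the protein-coding genes ordered by their longest transcript (x axis, 1 being the shortest). Lower genes number 7 in the bin of the shortest and 110 in that of the longest, and higher genes 29 and 2.

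The largest falls among genes whose groups did not overlap included Lrch4, which encodes a leucine-rich repeat protein with a calponin homology domain. Lrch4 was at 25.4, 35.9, 22.9, and 14.99 TPM in SC siRNA cultures 1, 2, 3, and 4 and between 5.54 and 9.67 TPM, with a median of 6.58, in the paxillin siRNA libraries (log2 difference -1.61 ± 0.36 SE, limma adjusted p = 0.00717). All SC siRNA libraries lay above all paxillin siRNA libraries, and culture 3 fell by 1.68, close to the fitted value. Myo10 encodes an unconventional myosin that carries integrins to the tips of filopodia, and its level was 17.4, 27.5, 10.3, and 24.5 TPM against 5.56 to 9.10 TPM with a median of 7.75 (log2 difference -1.22 ± 0.25 SE, limma adjusted p = 0.00338). Zfp36l1, whose protein directs AU-rich mRNAs to decay, was at 213, 374, 149, and 316 TPM against 85.7 to 149 TPM with a median of 119.2 (log2 difference -1.09 ± 0.28 SE, limma adjusted p = 0.0172), so that SC siRNA culture 3 stood only just above the highest paxillin siRNA library. Sall1, a zinc finger transcription factor of neural progenitors, was at 86.3, 105, 55.2, and 115 TPM against 33.5 to 44.8 TPM with a median of 38.2 (log2 difference -1.16 ± 0.25 SE, limma adjusted p = 0.00588). Mavs, the mitochondrial adaptor of RNA sensing, fell by 1.08 on the log2 scale, and Hipk2, a nuclear protein kinase, fell by 1.06. The others of the 15 largest falls were H1f5 and Sox2, described below, the FERM domain gene Frmd8, the mitochondrial carrier gene Slc25a35, and 5 genes with clone or locus names (A930003O13Rik, D130037M23Rik, Gm52799, LOC115486128, and Gm10353). Frmd8, Slc25a35, and these 5 had log2 differences between -1.43 and -1.07. In all 15 the difference was below 0 in each of the 4 culture pairs, as the rule that chose them required.

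The 15 largest rises under the same rule were mostly smaller, from 1.34 to 0.79 on the log2 scale, against -1.61 to -1.06 for the falls. Tceal7, of the transcription elongation factor A-like family, was at 2.66, 1.80, 2.70005, and 2.58 TPM in the SC siRNA libraries and between 5.92 and 9.71 TPM, with a median of 7.33, with paxillin siRNA (log2 difference 1.31 ± 0.24 SE, limma adjusted p = 0.00172). The change was 1.23, 1.53, 1.41, and 1.58 in cultures 1, 2, 3, and 4, so that culture 3 changed as much as the others, and SC siRNA culture 3 was within the range of the other SC siRNA libraries. The uncharacterised transcript LOC108168731 was at 74.8, 54.2, 63.2, and 80.3 TPM against 122 to 170 TPM with a median of 147 (log2 difference 1.11 ± 0.24 SE, limma adjusted p = 0.00652), again with a rise in culture 3 of 1.40. Ptms, which encodes the small acidic nuclear protein parathymosin, was at 705, 586, 980, and 791 TPM against 1251 to 2011 TPM with a median of 1483 (log2 difference 1.01 ± 0.18 SE, limma adjusted p = 0.00172). Rac3, a small GTPase of developing neurons, was at 218, 173, 269, and 172 TPM against 286 to 471 TPM with a median of 372 (log2 difference 0.85 ± 0.23 SE, limma adjusted p = 0.0266). Ly6g6e, which encodes a GPI-anchored Ly6 family protein, had the largest fitted rise of the 15, 1.34 ± 0.41 SE (limma adjusted p = 0.0440), but was at 6.13 TPM in SC siRNA culture 3 and 6.51 TPM in the lowest paxillin siRNA library. Also among the 15 largest were the sterol enzyme gene Msmo1 and the follistatin-like gene Fstl3, described below, S100a10, which encodes a partner of annexin A2, and the long noncoding RNA Kantr. The rest were Gm17315, Fam241a, Gm40733, Tmem120a, Iglon5, and Rhebl1, with log2 differences between 0.79 and 0.88.

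**Figure D3:**
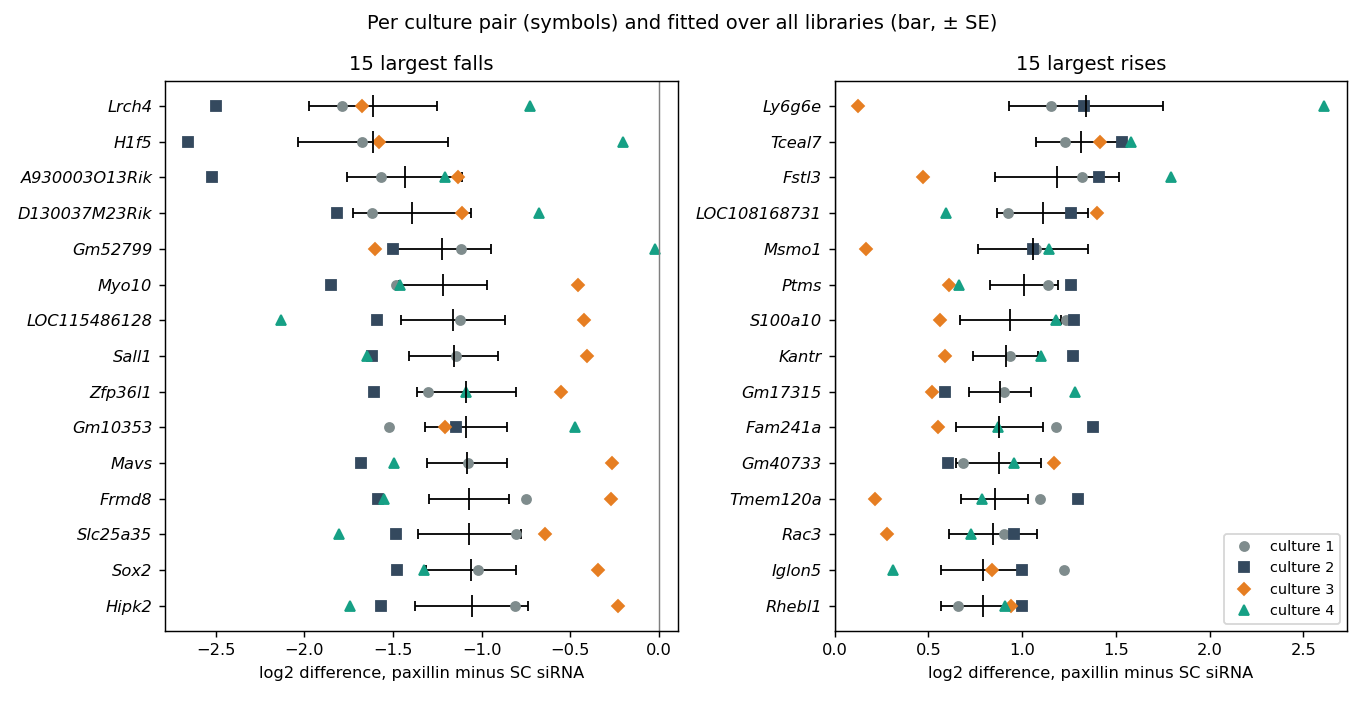
Symbols give the log2 difference (x axis, paxillin siRNA minus SC siRNA) of each of the 15 largest falls and 15 largest rises (y axis) within cultures 1 to 4, and the bar with its whiskers the fitted difference over all libraries ± SE. Culture 3 is nearest to 0 for Sox2 (-0.35) and Msmo1 (0.16) but not for Lrch4 (-1.68), Tceal7 (1.41), or LOC108168731 (1.40).

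**Figure D4:**
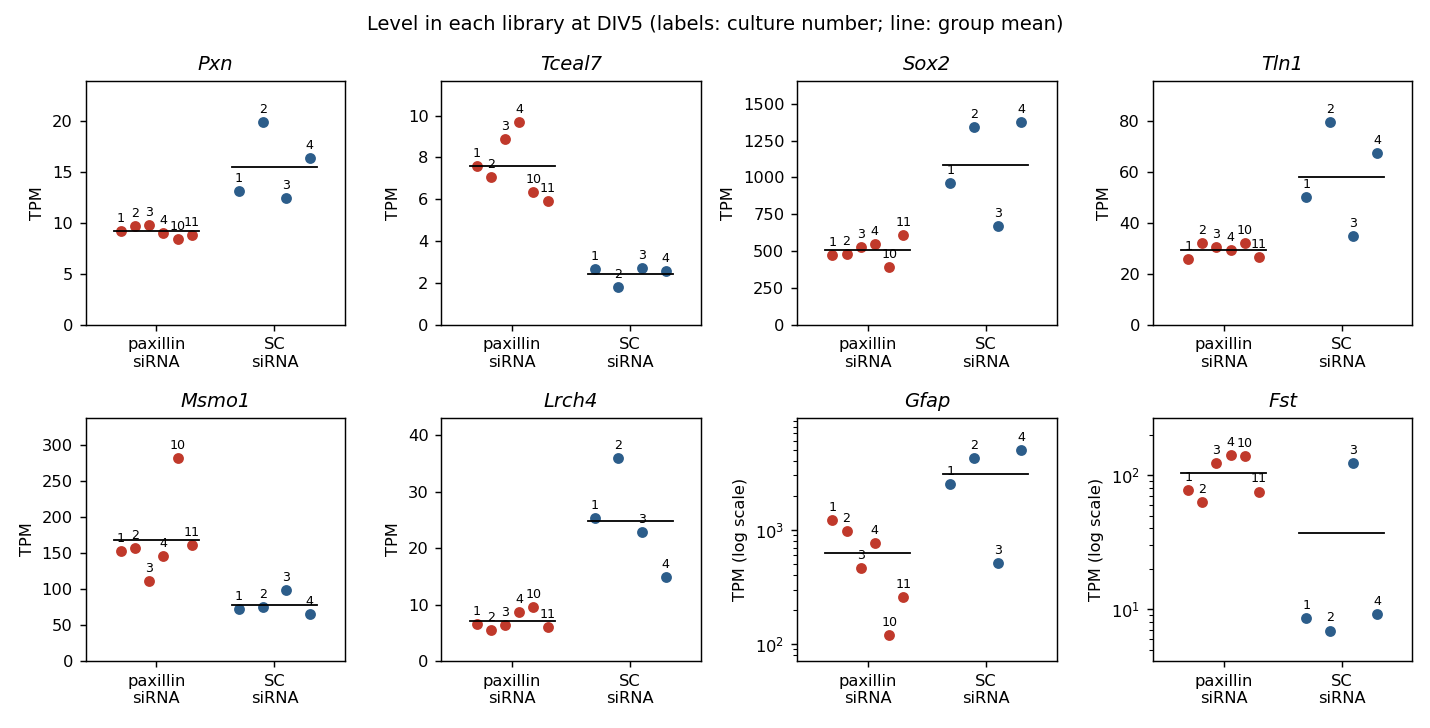
Points give the TPM of 8 genes in each library (y axis, from 0 except for Gfap and Fst, which are on a log scale), numbered by culture, with a line at the group mean. For Pxn, Tceal7, Sox2, Tln1, Msmo1, and Lrch4 the groups do not overlap; for Gfap and Fst, SC siRNA culture 3, at 508 and 123 TPM, lies among the paxillin siRNA libraries.

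Sox9, Aldh1l1, Sox2, and Notch1 were the markers of astrocytes and their progenitors that passed, and all were lower with paxillin siRNA. All 14 astrocyte markers had a fitted difference below 0, with a median of -0.86 against -0.08 over all genes, and 2 of the 14 passed, both lower (5.38% of all genes were called lower). Sox9, a transcription factor of gliogenesis, was at 259, 462, 202, and 453 TPM in SC siRNA cultures 1, 2, 3, and 4 and between 94.5 and 221 TPM, with a median of 149, with paxillin siRNA (log2 difference -1.13 ± 0.30 SE, limma adjusted p = 0.0188). Aldh1l1, a folate enzyme used as an astrocyte marker, was at 26.5, 32.7, 14.7, and 28.8 TPM against 9.44 to 19.5 TPM with a median of 13.1 (log2 difference -0.86 ± 0.24 SE, limma adjusted p = 0.0283). In both, SC siRNA culture 3 lay within the range of the paxillin siRNA libraries. Gfap, the intermediate filament of astrocytes, was at 2500, 4292, 508, and 5053 TPM against 120 to 1214 TPM with a median of 611, the largest fitted difference of the list at -2.24 ± 1.16 SE, and did not pass (limma adjusted p = 0.245, and 0.131 with the culture block). The median over the 14 markers was -0.92, -1.15, -0.19, and -1.45 in cultures 1, 2, 3, and 4. Under the culture block 6 of the 14 were lower (16.2% of all genes), and without culture 3 it was 4 (1579 of all 14250 genes). After rescaling with size factors 1 was lower. In these bulk libraries fewer cells of a type and less RNA per cell cannot be told apart.

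Among 14 markers of radial glia and progenitors, Sox2 and Notch1 passed and both were lower, and 12 of the 14 differences were below 0 (median -0.58). Sox2, which maintains neural progenitors, was at 960, 1340, 669, and 1378 TPM with SC siRNA and between 391.7 and 607 TPM, with a median of 504, with paxillin siRNA (log2 difference -1.06 ± 0.25 SE, limma adjusted p = 0.0107). Vim, an intermediate filament of radial glia, also separated the groups, with 235, 403, 163, and 740 TPM against 97.1 to 156 TPM with a median of 130, and did not pass (log2 difference -1.38, limma adjusted p = 0.0513). With the culture block 6 of the 14 were lower (16.2% of all genes), and without culture 3 it was 5 (1579 of all 14250 genes). The 12 markers of the oligodendrocyte lineage had a median of -0.98 and none passed. Of these, 4 were lower with the culture block and 3 without culture 3, against the same shares of all genes. Olig1 averaged 2210 TPM under SC siRNA and 1058 TPM under paxillin siRNA (limma adjusted p = 0.303), and Olig2 likewise averaged 1044 and 474 TPM (limma adjusted p = 0.221). In culture 3 the oligodendrocyte median was 0.14, above 0, while the other pairs gave -0.56, -1.23, and -1.60.

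Neuronal marker lists had no call in either direction. Over 16 pan-neuronal markers the median difference was 0.19, and over 13 tested markers of excitatory neurons 0.06. Neurod6, a transcription factor of cortical excitatory neurons, was at 193, 225, 1319, and 436 TPM in SC siRNA cultures 1, 2, 3, and 4 and between 578 and 1353 TPM, with a median of 1067, with paxillin siRNA (log2 difference 1.26, limma adjusted p = 0.172, and 0.0496 with the culture block). Culture 3 had nearly the same level under both siRNAs. With the block, 4 of the 13 excitatory markers were higher (6.46% of all genes). Without culture 3, 1 of the 13 and 3 of the 16 pan-neuronal markers were (332 of all 14250 genes). Tubb3, the neuronal beta-tubulin, averaged 1693 TPM with paxillin and 1099 TPM with SC siRNA (limma adjusted p = 0.156). Of 14 markers of GABAergic interneurons 13 had a difference below 0 and none passed, with a median of -0.70. Sst, the neuropeptide somatostatin, was at 128, 431, 47.3, and 483 TPM against 29.2 to 194 TPM with a median of 72.5 (log2 difference -1.43, limma adjusted p = 0.430).

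Markers of other cell types were low. Summed levels lay between 39.5 and 108 TPM over 10 microglial markers with paxillin siRNA and between 68.8 and 176 TPM with SC siRNA. For 10 endothelial and mural markers the ranges were 6.27 to 17.3 and 11.2 to 25.6 TPM, for 9 meningeal fibroblast markers 85.8 to 217 and 118 to 205 TPM (mostly Pdgfra, also a marker of oligodendrocyte precursors, with means of 93.1 and 147 TPM), for 6 Cajal-Retzius cell markers 14.99 to 28.04 and 18.1 to 54.1 TPM, and for 5 red blood cell genes 0.23 to 2.65 and 1.79 to 3.31 TPM. No member of these lists passed.

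Transcription factors of the SOX family were inspected after the values were seen. All 13 members looked at were tested, 7 were lower (Sox2, Sox3, Sox6, Sox8, Sox9, Sox13, and Sox21), and none was higher. Of all genes tested, 5.38% were called lower and 0.8% higher, which also applies to the other families below. Sox21 was at 206, 379, 104, and 338 TPM in SC siRNA cultures 1, 2, 3, and 4 and between 49.2 and 129 TPM, with a median of 72.5, with paxillin siRNA (log2 difference -1.56 ± 0.31 SE, limma adjusted p = 0.00288). Sox3 was at 188, 339, 89.6, and 186 TPM against 31.3 to 136 TPM with a median of 60.4 (log2 difference -1.56 ± 0.48 SE, limma adjusted p = 0.0444). For both, SC siRNA culture 3 lay within the paxillin siRNA range. Sox4 and Sox11, which act in newborn neurons, did not pass, with log2 differences of -0.32 and 0.28 (limma adjusted p = 0.466 and 0.563). Among 8 tested SALL and ZIC zinc finger factors, viewed in the same way, Sall1, Sall2, Sall3, and Zic5 were lower and the remaining differences were also below 0. Of the ZFP36 family of RNA-decay proteins, Zfp36l1 and Zfp36l2 were lower (Zfp36l2 by 1.01 ± 0.24 SE on the log2 scale, limma adjusted p = 0.0113) and Zfp36 did not pass (log2 difference -0.43, limma adjusted p = 0.521).

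Genes of focal adhesions and integrin signalling, the structures to which paxillin itself belongs, were lower where they passed. Of 45 tested, 8 were lower (5.38% of all genes) and none higher, and 37 had a difference below 0 (median -0.27). Tln1 encodes talin, which activates integrins and links them to actin, and was at 49.98, 79.6, 34.6, and 67.2 TPM in SC siRNA cultures 1, 2, 3, and 4 and between 25.7 and 32.2 TPM, with a median of 29.9, with paxillin siRNA (log2 difference -0.89 ± 0.19 SE, limma adjusted p = 0.00511). Crkl, an adaptor of the Crk family, was at 41.7, 48.2, 30.8, and 53.9 TPM against 21.2 to 27.5 TPM with a median of 24.3 (log2 difference -0.78 ± 0.14 SE, limma adjusted p = 0.00168). In both genes the groups did not overlap, with SC siRNA culture 3 nearest to the paxillin siRNA libraries. Tns3, which encodes tensin 3, had the largest difference, -1.45 ± 0.43 SE (limma adjusted p = 0.0376), from 10.1, 23.9, 4.27, and 29.5 TPM against 3.79 to 5.62 TPM with a median of 4.19, and SC siRNA culture 3 was inside the range of the paxillin siRNA libraries. Itgb5, an integrin beta subunit, averaged 7.24 TPM with SC siRNA and 3.57 TPM with paxillin siRNA (log2 difference -0.78, limma adjusted p = 0.0476). The remaining 4 calls were Fyn, Dock1, Arhgap35, and Git2, of which Fyn encodes a Src family kinase and the others regulators of small GTPases. With the culture block 11 members were lower (16.2% of all genes) and 2 higher, and without culture 3 11 were lower (1579 of all 14250 genes). After rescaling with size factors 4 were lower.

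Related lists had fewer calls. Of 32 genes of the actin and microtubule cytoskeleton of growing neurites, Tubb2b and Arpc2 were higher and Rhoa was lower. Of all genes tested, 0.8% were called higher and 5.38% lower, which also applies to the next 2 lists. Tubb2b, a beta-tubulin of migrating neurons that is highly similar to Tubb2a, so that their shared reads may have been split, was at 8608, 6370, 13525, and 6736 TPM with SC siRNA and between 11443 and 15108 TPM, with a median of 14071, with paxillin siRNA (log2 difference 0.71 ± 0.20 SE, limma adjusted p = 0.0309), and culture 3 was at the same level under both siRNAs. Arpc2, of the Arp2/3 complex, differed by 0.50 (limma adjusted p = 0.0348) and Rhoa, the GTPase that drives contraction, by -0.42 (adjusted p = 0.0186). Without culture 3, 8 of the 32 were higher and 1 lower (332 and 1579 of all 14250 genes). Of 32 tested collagens, laminins, and matrix genes only Lamb2, the laminin beta 2 chain, passed. Lamb2 was at 76.3, 134, 38.4, and 127 TPM against 30.1 to 64.3 TPM with a median of 40.0 (log2 difference -1.04 ± 0.31 SE, limma adjusted p = 0.0413). With the culture block 7 of this list were lower and 1 higher (16.2% and 6.46% of all genes). Without culture 3 it was 6 and 1 (1579 and 332 of all 14250 genes). In axon guidance and adhesion, 2 of 46 passed, Efna3 (log2 difference 0.86, limma adjusted p = 0.0333) and Epha3 (0.83, adjusted p = 0.0442), a ligand and a receptor of the ephrin system, and both were higher; in culture 3 their differences were -0.08 and -0.10.

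In the nucleus, the chromatin regulators that passed were all lower. Of 54 tested, 10 were lower (5.38% of all genes), none was higher, and 49 had a difference below 0 (8661 of the 14250 genes), with a median of -0.23 and medians of -0.36, -0.25, -0.20, and -0.18 in cultures 1, 2, 3, and 4. Here culture 3 was not set apart from the others. Kat6a, a histone acetyltransferase, was at 58.0, 57.5, 53.7, and 65.2 TPM with SC siRNA and between 33.5 and 47.8 TPM, with a median of 40.1, with paxillin siRNA (log2 difference -0.55 ± 0.14 SE, limma adjusted p = 0.0148). All SC siRNA libraries, culture 3 included, lay above all paxillin siRNA libraries. Also lower were the histone methyltransferase gene Setd1b, the acetyltransferase genes Crebbp and Ep300, the demethylase gene Kdm5c, the remodeller genes Arid1a and Chd4, and the bromodomain gene Brd2. Under the culture block 20 were lower (16.2% of all genes), without culture 3 11, and after rescaling with size factors 2 were lower. Over the tenth of protein-coding genes with the longest transcripts the median was -0.15 (-0.29, -0.16, -0.04, and -0.12 in cultures 1, 2, 3, and 4). The part of transcript length in the chromatin list was not tested.

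Of 35 tested genes of Mediator, RNA polymerase II, and transcription elongation, 5 were lower (5.38% of all genes) and none higher (median -0.23). Polr2a, the largest subunit of RNA polymerase II, was at 149, 148, 87.8, and 162 TPM with SC siRNA and between 55.5 and 116 TPM, with a median of 69.6, with paxillin siRNA (log2 difference -0.83 ± 0.24 SE, limma adjusted p = 0.0312), and SC siRNA culture 3 lay inside that range. The others were Cdk12, the kinase of the polymerase tail, with a log2 difference of -0.50, the elongation factor gene Supt6 with -0.42, and the Mediator genes Med22 and Med1. In culture 3 the list median was -0.02, and Cdk12 and Med22 differed there by -0.003 and -0.03, against -0.42 for Supt6. With the culture block 10 were lower (16.2% of all genes), without culture 3 7 (1579 of all 14250 genes), and after rescaling with size factors 1 was lower. Splicing factors gave 3 calls among 45 tested, a share near the 5.38% of all genes called lower, namely Ptbp1 (log2 difference -0.67, limma adjusted p = 0.0192), Rbm10 (-0.37, adjusted p = 0.0277), and Sf3a1 (-0.29, adjusted p = 0.0259). Ptbp1 represses neuronal exons and is expressed in progenitors and glia. The median over the splicing factors was -0.11, close to the -0.08 of all genes, and with the culture block 4 were higher and 10 lower (6.46% and 16.2% of all genes), and without culture 3 it was 1 and 6; after rescaling with size factors no splicing factor passed.

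The promoter of H1f5 is shown because this linker histone stood next to Lrch4 among the falls listed above. H1f5 was at 5.81, 5.30, 4.14, and 2.68 TPM in SC siRNA cultures 1, 2, 3, and 4 and between 0 and 2.21 TPM, with a median of 0.93, with paxillin siRNA, where cultures 2 and 10 were listed at 0 (log2 difference -1.61 ± 0.43 SE, limma adjusted p = 0.0197). The groups did not overlap, with the smallest gap in culture 4. Transcripts of replication-dependent histones mostly lack a poly(A) tail and are measured incompletely by mRNA libraries. Of 26 tested histone genes H1f5 alone passed, 22 had a difference below 0, and the median was -0.57. The 300 bases around the annotated start of H1f5 (GRCm38.p6, RefSeq, chr13:21780576-21780875, minus strand, 250 bases before and 50 after the start) hold 3 matches to the CCAAT box, searched as CCAAT on both strands and shown in capitals.
H1f5: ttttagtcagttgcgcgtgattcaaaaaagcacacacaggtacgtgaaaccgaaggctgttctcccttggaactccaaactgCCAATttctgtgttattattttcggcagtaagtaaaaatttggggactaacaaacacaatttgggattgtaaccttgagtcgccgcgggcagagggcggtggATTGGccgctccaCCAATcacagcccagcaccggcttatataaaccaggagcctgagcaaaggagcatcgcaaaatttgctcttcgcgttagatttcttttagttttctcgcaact
The same letters were found in the promoter of 18 of the 23 histone genes with an entry, and in 37.4% of all 32851 promoters of this length.

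Signalling genes of progenitors and glia were lower where they passed, as were 766 of the 880 calls over all genes. Of 36 tested genes of the Notch and Wnt pathways 4 were lower (5.38% of all genes) and none higher. These were the receptor genes Notch1 and Notch2, the Notch coactivator gene Maml1, and Dvl3, a relay of Wnt receptors. Notch2 was at 11.5, 22.2, 8.38, and 18.7 TPM with SC siRNA and between 5.54 and 8.83 TPM, with a median of 6.39, with paxillin siRNA (log2 difference -1.02 ± 0.25 SE, limma adjusted p = 0.0133). Maml1 was at 16.7, 20.1, 11.9958, and 18.9 TPM against 9.02 to 10.3 TPM with a median of 9.42 (log2 difference -0.75 ± 0.13 SE, limma adjusted p = 0.00164), without overlap. With the culture block 14 of the list were lower (16.2% of all genes), without culture 3 it was 10 (1579 of all 14250 genes), and after rescaling with size factors 2. Genes of the gp130 receptor and STAT3, which carry the astrogliogenic signal of CNTF family cytokines, were viewed after the values were seen. Of 12 tested, 2 were lower (5.38% of all genes). Stat3 was at 32.9, 37.0, 18.6, and 42.6 TPM against 13.1 to 19.5 TPM with a median of 15.2 (log2 difference -0.96 ± 0.21 SE, limma adjusted p = 0.00698), and Il6st, the gp130 receptor itself, was at 106, 167, 28.1, and 157 TPM against 20.1 to 51.2 TPM with a median of 46.3 (log2 difference -1.20 ± 0.36 SE, limma adjusted p = 0.0430). SC siRNA culture 3 lay within the paxillin siRNA range for both.

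Of 22 immediate early genes Egr1 alone passed and was lower, where 5.38% of all genes were called lower. In this list 18 had a difference below 0 (8661 of the 14250 genes). Egr1, a zinc finger factor induced by activity and growth factors, was at 453, 323, 66.7, and 138 TPM with SC siRNA and between 37.5 and 114 TPM, with a median of 88.4, with paxillin siRNA (log2 difference -1.36 ± 0.42 SE, limma adjusted p = 0.0468). Among 30 tested genes of the neurotrophin pathway Akt2 (log2 difference -0.39, limma adjusted p = 0.0170) and the docking protein gene Gab1 (-0.82, adjusted p = 0.0228) were lower. In the same list 1 gene was higher (5.38% of all genes were called lower and 0.8% higher). The feedback inhibitors of ERK gave no call among 13 genes; Dusp6 averaged 70.4 TPM under SC siRNA and 121 TPM under paxillin siRNA (limma adjusted p = 0.162).

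In cholesterol synthesis every tested gene had a fitted difference above 0, 22 of 22, with a median log2 difference of 0.63 against -0.08 over all genes. Msmo1 and Fdps passed (0.8% of all genes were called higher). Msmo1, a methylsterol oxidase, was at 72.6, 74.9, 99.3, and 65.7 TPM in SC siRNA cultures 1, 2, 3, and 4 and between 111 and 282 TPM, with a median of 155, with paxillin siRNA (log2 difference 1.06 ± 0.29 SE, limma adjusted p = 0.0266). Fdps, which makes farnesyl diphosphate, was at 133, 111, 293, and 101 TPM against 203 to 472 TPM with a median of 270 (log2 difference 1.03 ± 0.27 SE, limma adjusted p = 0.0179). For Msmo1 the groups did not overlap, and for Fdps SC siRNA culture 3 was above 4 of the 6 paxillin siRNA libraries. Hmgcs1, which makes HMG-CoA, was the most abundant of the list, at 735, 525, 1475, and 527 TPM against 1109 to 1560 TPM with a median of 1468, and did not pass (log2 difference 0.92, limma adjusted p = 0.131). The median over the list was 0.48, 0.42, -0.25, and 0.83 in cultures 1, 2, 3, and 4, so that culture 3 had the opposite sign. Without culture 3, 7 of the 22 were higher (332 of all 14250 genes), and with the culture block 3 were higher (6.46% of all genes).

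Promoters of this pathway are known for sterol regulatory elements, the sites of SREBP factors. The letters TCACNCCAC, searched on both strands, were found in 1 of the 15 list members with a promoter entry, Hmgcs1, and in 1.24% of all promoters of 300 bases. The promoter of Hmgcs1 (GRCm38.p6, RefSeq, chr13:119690101-119690400, plus strand) is given with the match in capitals.
Hmgcs1: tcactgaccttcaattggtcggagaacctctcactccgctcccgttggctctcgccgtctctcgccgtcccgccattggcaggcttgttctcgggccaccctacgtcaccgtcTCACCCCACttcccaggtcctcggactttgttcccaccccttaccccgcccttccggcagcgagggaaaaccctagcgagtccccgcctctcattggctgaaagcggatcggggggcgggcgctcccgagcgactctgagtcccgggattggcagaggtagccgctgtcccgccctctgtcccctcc
Of the ATF4 amino acid response, 1 of 36 genes passed, Asns (0.8% of all genes were called higher). In this list 26 had a difference above 0 (5589 of the 14250 genes), with a median of 0.25. Asns encodes asparagine synthetase and was at 108, 96.0, 136, and 75.8 TPM with SC siRNA and between 129 and 244 TPM, with a median of 180, with paxillin siRNA (log2 difference 0.86 ± 0.26 SE, limma adjusted p = 0.0387), with SC siRNA culture 3 above the lowest paxillin siRNA library. Trib3, another ATF4 target, averaged 17.5 TPM with paxillin and 16.2 TPM with SC siRNA (limma adjusted p = 0.959). Blocking by culture, 7 members were higher (6.46% of all genes). Without culture 3, 1 was higher and 2 lower (332 and 1579 of all 14250 genes). The letters TGATGNAA, a form of the amino acid response element searched on both strands, stood in the promoters of 10 of the 29 members with an entry and in 3.97% of all promoters, and the list was written from known ATF4 targets. In the Asns promoter (GRCm38.p6, RefSeq, chr6:7693160-7693459, minus strand) the match in capitals begins at position -23, counted from the annotated start as 0.
Asns: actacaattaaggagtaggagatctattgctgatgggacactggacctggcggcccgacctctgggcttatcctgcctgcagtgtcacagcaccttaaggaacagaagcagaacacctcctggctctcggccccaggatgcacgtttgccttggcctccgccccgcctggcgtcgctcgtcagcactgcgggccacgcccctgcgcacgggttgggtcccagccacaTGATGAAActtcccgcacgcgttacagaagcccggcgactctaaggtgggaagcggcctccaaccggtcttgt
Ribosomal protein genes shared one direction without passing. All 52 had a fitted difference above 0, with a median of 0.32, and none passed, whereas 19 were higher with the culture block (6.46% of all genes). Over the tenth of protein-coding genes with the shortest transcripts the median difference was 0.07, and the part of transcript length in this list was not tested. Rps15, of the small subunit, was at 1248, 1470, 1727, and 1675 TPM against 1768 to 2322 TPM with a median of 2155 (log2 difference 0.46, limma adjusted p = 0.171). Genes with ribosomal protein symbols made up 4.49% to 5.66% of each paxillin siRNA library and 3.48% to 4.65% of each SC siRNA library. Of 43 tested genes of the mitochondrial ribosome Mrpl23 was higher (log2 difference 0.45, limma adjusted p = 0.0434) and Mrps2 lower (-0.35, adjusted p = 0.0483).

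The largest fitted rises among all 114 higher genes, Fst and Inhba, belonged to the activin and follistatin system, which was looked at after the values were seen. Activin is a growth factor of the TGF-beta family, Inhba encodes its subunit, and follistatin (Fst) and Fstl3 bind and block it. Fst was at 8.56, 6.94, 123, and 9.21 TPM in SC siRNA cultures 1, 2, 3, and 4 and between 63.4 and 141 TPM, with a median of 99.7, with paxillin siRNA (log2 difference 2.49 ± 0.56 SE, limma adjusted p = 0.00710). SC siRNA cultures 1, 2, and 4 were thus far below every paxillin siRNA library and culture 3 among them, and in culture 3 the difference was -0.01 while it was 3.03, 3.02, and 3.80 in cultures 1, 2, and 4. Inhba was at 25.7, 12.03, 126, and 11.4 TPM against 82.002 to 163 TPM with a median of 118.6 (log2 difference 2.12 ± 0.63 SE, limma adjusted p = 0.0400). Fstl3 was at 1.67, 2.19, 5.58, and 2.34 TPM against 5.65 to 10.6 TPM with a median of 7.13 (log2 difference 1.18 ± 0.33 SE, limma adjusted p = 0.0277), and here the groups did not overlap. At DIV3, Fst was at 143 ± 30.7 TPM with paxillin siRNA (SD, n = 5) and at 138 ± 16.7 TPM with SC siRNA (SD, n = 3), and at DIV10 at 3.68 ± 0.488 TPM (SD, n = 4) and 5.72 ± 2.54 TPM (SD, n = 3). At DIV5 the paxillin siRNA libraries and SC siRNA culture 3 were thus near the DIV3 level, and the other 3 SC siRNA libraries near the DIV10 level. Receptors and SMAD genes of the pathway did not pass, and 3 of 15 tested genes were higher in all (0.8% of all genes were called higher).

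**Figure D5:**
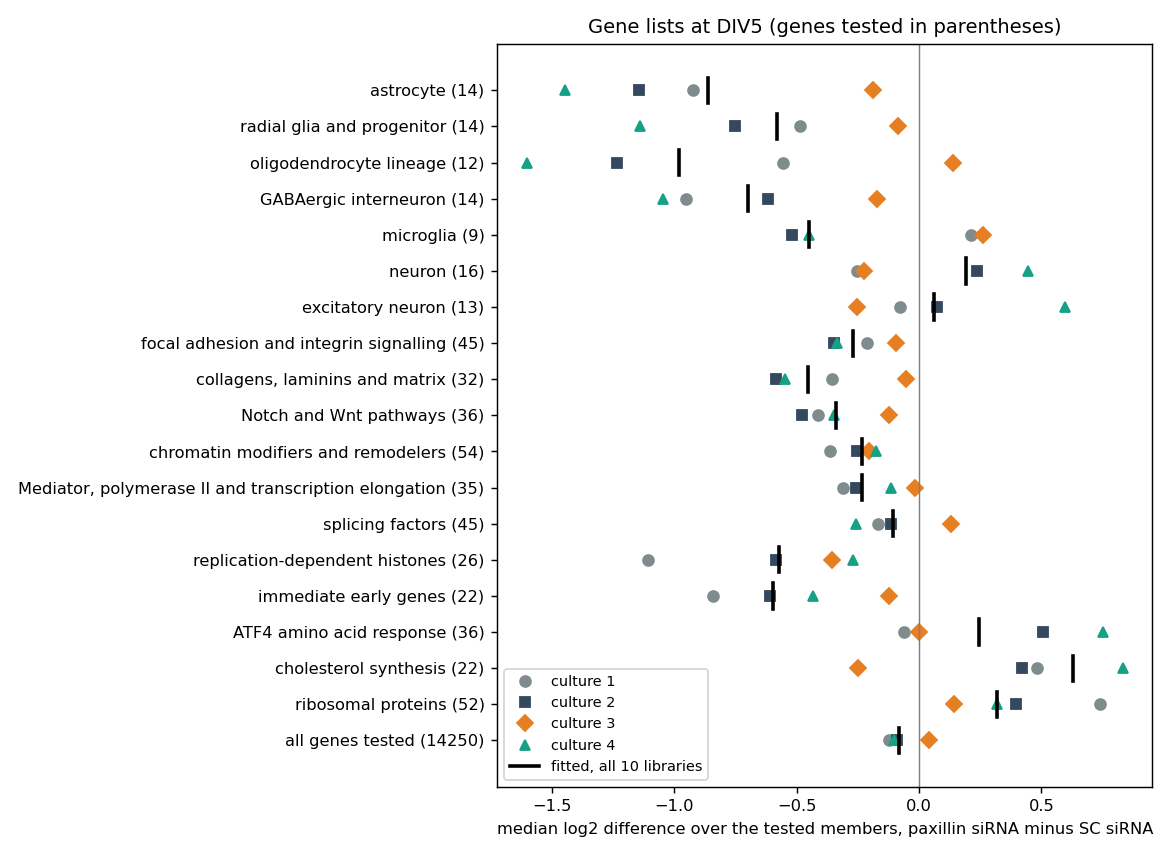
Symbols give, for each gene list (y axis, with the number of genes tested), the median log2 difference (x axis, paxillin siRNA minus SC siRNA) within cultures 1 to 4, and the bar the median of the fitted differences over all libraries. Astrocyte genes lie at -0.86 and cholesterol genes at 0.63, culture 3 is at -0.19 and -0.25 in these lists, and chromatin regulators are alike in all 4 cultures (-0.36 to -0.18).

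Synaptic lists showed little at DIV5. Among 27 tested postsynaptic density genes Dlg4, which encodes PSD-95, was higher, at 217, 164, 254, and 154 TPM with SC siRNA and between 226 and 318 TPM, with a median of 282, with paxillin siRNA (log2 difference 0.52 ± 0.16 SE, limma adjusted p = 0.0468). Among 20 tested sodium and calcium channel genes the calcium channel subunit gene Cacnb3 was higher (log2 difference 0.49, limma adjusted p = 0.0476). No gene passed among 30 of synaptic vesicles and release, 19 glutamate receptors, 17 GABA and glycine receptors, or 31 potassium and HCN channels, and with the culture block between 0 and 2 of each list were called in a given direction. Grin1, the common NMDA receptor subunit, averaged 134 TPM with paxillin and 175 TPM with SC siRNA (limma adjusted p = 0.650) and Gria2, an AMPA receptor subunit, likewise 130 and 103 TPM (adjusted p = 0.407). Other lists with 1 call or none were DNA replication, where Mcm2 of the replicative helicase was lower (log2 difference -0.62, limma adjusted p = 0.0262), heat shock chaperones, where Dnajb1 was lower (-0.46, adjusted p = 0.00558), mitosis, the unfolded protein response, interferon-stimulated genes, p53 targets, glycolysis, the respiratory chain, and the proteasome. Of the 19 tested interferon-stimulated genes, 16 had a difference below 0 (8661 of the 14250 genes), with a median of -0.68. Within cultures 1, 2, 3, and 4 their median was -0.09, -0.61, 0.24, and -0.66.

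The siRNA difference at DIV5 was then set against that at other days and with BDNF. Pxn itself differed by -0.67 at DIV5, -0.16 at DIV3, 0.19 at DIV10, and -0.42 with BDNF at DIV5, so that its fitted level was not lower with paxillin siRNA at DIV10 (interaction of DIV5 with DIV10 -0.86, limma adjusted p = 0.0509). Between DIV5 and DIV10, 821 of 14250 genes (5.76%) differed in their siRNA difference (interaction in limma, adjusted p under 0.05), 308 upward and 513 downward at DIV5 relative to DIV10, and 311 of these were among the 880. Without cultures 10 and 11 the balance of directions turned, with 2024 upward and 1374 downward. Leaving out SC siRNA culture 4 or 2 left 102 or 108 calls, leaving out SC siRNA culture 3 gave 1655, and leaving out paxillin siRNA culture 1, 2, or 10 gave 369, 432, or 527. Cholesterol genes stood out by count, with 14 of 22 called, all upward, from a median difference of 0.63 at DIV5 to one of -0.99 at DIV10. Msmo1 averaged 78.1 TPM under SC siRNA and 169 TPM under paxillin siRNA at DIV5, but 60.1 ± 13.04 TPM (SD, n = 3) and 31.2 ± 14.1 TPM (SD, n = 4) at DIV10, in the same order (interaction 2.07, limma adjusted p = 0.0116). Sodium and calcium channels had 8 of 20 called, potassium and HCN channels 7 of 31, and axon guidance genes 7 of 46, all upward, with medians at DIV10 of -0.87, -0.86, and -0.75. At DIV10 the summed level of the pan-neuronal markers was 815, 1332, 2952, and 2549 TPM in paxillin siRNA cultures 1, 2, 10, and 11. In SC siRNA cultures 1, 3, and 6 it was 2911, 2066, and 3082 TPM. Ribosomal protein symbols made up 12.21%, 11.34%, 6.052%, and 5.669% of these paxillin siRNA libraries and 4.33%, 8.847%, and 4.624% of these SC siRNA libraries. The DIV10 libraries also belong to partly different cultures and library series. The part of all these in the differences between DIV5 and DIV10 was not tested.

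Against DIV3, no gene passed the interaction test (limma, 1054 genes at an unadjusted p under 0.05). Astrocyte genes had a median siRNA difference of -0.14 at DIV3, -0.86 at DIV5, and -0.17 at DIV10. With BDNF at DIV5, which involves other libraries of mostly the same cultures, no gene had a different siRNA difference (limma, 116 genes at an unadjusted p under 0.05), which does not show that the differences were alike. The median difference without and with BDNF was -0.86 and -0.41 for astrocyte genes, -0.98 and -1.13 for oligodendrocyte genes, 0.63 and 0.52 for cholesterol genes, -0.60 and 0.11 for immediate early genes, and 0.25 and 0.63 for the ATF4 list.

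From DIV3 to DIV10 in SC siRNA cultures, astrocyte, oligodendrocyte, and microglial genes had a median difference of 2.79, 2.39, and 2.82 on the log2 scale and cholesterol genes one of -1.23. Of the 114 genes higher with paxillin siRNA at DIV5, 71.1% had a lower level at DIV10 than at DIV3 in SC siRNA cultures, against 52.5% of all genes tested, and of the 766 lower genes 50.3% did. These shares share no library with the DIV5 contrast, but the libraries come in part from the same cultures.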

How the data were processed

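The deposited values were TPM per gene, which the authors made from mRNA libraries with STAR 2.7.10 and RSEM 1.3.3 on the mouse genome GRCm38.p6, per the submitters' processing notes. Each library sums to 1000000, so depth and counting error are unknown. Values were taken as log2(TPM + 1) for the 14250 of 39756 genes that averaged 1 TPM or more across the 48 cortex libraries, and fitted with limma 3.58.1 in R 4.3.3 (lmFit, eBayes with an intensity trend, 1 coefficient for each of 13 groups, 35 residual degrees of freedom), with Benjamini-Hochberg adjustment over all genes tested and a threshold of 0.05. Pxn was also tested by an exact permutation test over its 10 libraries.

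Cultures are paired by the culture number in the labels: deviations of same-numbered libraries correlated at 0.24, 0.47, 0.49, and 0.25 in cultures 1, 2, 3, and 4, although SC siRNA culture 1 correlated about as well with paxillin siRNA cultures 2 and 11 (0.249 and 0.241). No 2 libraries held identical values. The limma p-values of the main fit rest on a spread pooled within all 13 groups of the 48 cortex libraries, not on the 10 DIV5 libraries alone. Libraries that share a culture number across groups were treated as independent in it.

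The gene lists and members were chosen with earlier results of these data known. Genes named were Pxn, up to 4 called members of each list with the largest difference or, where none was called, up to 2 of the highest level, and the 15 largest rises and 15 largest falls among called genes that averaged 2 TPM or more in the higher group, groups that did not overlap, and the same sign in all 4 culture pairs. This last rule was met by 42 higher and 363 lower genes. Any other gene named was chosen after its values were seen. Transcript lengths came from the longest protein-coding transcript of the annotation, which matched 98.7% of 12757 genes, and promoters from RefSeq. Alternatives were the pseudocount, the filter, the scaling, the libraries in the fit, the culture block, the library series, and leaving out each library. A few called genes of the lists are not reported here by name, although the lists' counts include them.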

Additional observations from a re-analysis of the deposited data

Results flagged for a closer look

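Among the 84 groups of 4 or 6 values examined, 5 had a lowest or highest library whose gap to the next exceeded the 95% critical value of Dixon's test, and chance flags about 1 in 20 groups. The gap as a share of the range was 0.885 for Tceal7, 0.891 for Tmem120a, 0.857 for Gm52799, and 0.92 for the summed excitatory neuron markers in the SC siRNA libraries, and 0.704 for Fam241a in the paxillin siRNA libraries. For Tceal7 the library apart was SC siRNA culture 2, at 1.80 TPM, and it lay on the far side from the paxillin siRNA libraries.

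For 821 genes the siRNA difference at DIV5 differed from that at DIV10 (interaction in limma, adjusted p under 0.05). Among the 15 largest rises at DIV5, this difference of differences was 1.43 for LOC108168731, 2.07 for Msmo1, 1.3 for Kantr, 1 for Gm17315, and 1.2 for Iglon5. Among the 15 largest falls it was -2.36 for H1f5, -1.3 for Myo10, -1.64 for Zfp36l1, -1.6 for Mavs, and -1.64 for Frmd8. The part of the different cultures and library series at DIV10 was not tested.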

How the results depend on the processing

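The main comparison called 880 genes. A pseudocount of 0.1 gave 807, a minimum of 5 TPM 792, no filter 653, and the fit without cultures 10 and 11 789. Median ratio size factors gave 437 calls, the fit of the DIV5 libraries alone 564, the fit of the 10 libraries alone 3, the series of library numbers as a term 3112, cultures 3 and 4 alone 0, and the fit without culture 3 at DIV5, an alternative chosen after seeing the data, 1911. The replicate block on culture number called 3235 genes over all libraries and 439 over the 8 libraries of cultures 1 to 4. Leaving out single libraries gave between 66 and 2126 calls. The Pxn difference of -0.67 was -0.63 in the pairs with the culture block (exact permutation p = 0.125, the smallest allowed) and -0.55 in cultures 3 and 4 (exact permutation p = 0.333, the smallest allowed).

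The 821 genes that differed between DIV5 and DIV10 became 517 with no filter, 1837 with the culture block, 3398 without cultures 10 and 11 (59.6% upward against 37.5%), 2289 with the series term, 1658 without culture 3 at DIV5, and between 102 and 1655 on leaving out single libraries. The 0 genes that differed between DIV5 and DIV3 became 12 without culture 3 at DIV5 and up to 25 on leaving out single libraries (from 0). No gene differed with BDNF under any alternative run. For Pxn and the 30 largest rises and falls, 507 alternative values were on the same side of the threshold and 166 were no longer past it, and none changed sign. The causes were not tested. Values without counts set no depth limit that can be stated.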
